A study of Mus musculus with 12 samples.

Results

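Nuclear pores are built from nucleoporins. 3 of them, Nup210, Ndc1 and Pom121, span the membrane of the pore and are made as membrane proteins at the endoplasmic reticulum (ER). The other nucleoporins form the outer ring, the inner ring, the central channel, the cytoplasmic filaments and the nuclear basket, and are soluble proteins made in the cytosol. The importins and exportins, also soluble, carry cargo through the pore under the control of the GTPase Ran. The nuclear envelope is continuous with the ER, which is why mRNAs of its membrane proteins can be read with ribosomes labelled at the ER.

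The genes described here are the protein-coding nucleoporins and nuclear transport receptors, chosen by mouse symbol (Nup and a number, Kpna, Kpnb, Ipo, Tnpo, Xpo4 to Xpo7, Xpot, Ndc1, Pom121, Tpr, Rae1, Aaas and Seh1l). The symbols gave 48 genes of the 55416 gene IDs in each table, and 47 had enough reads to be tested. The importin alpha Kpna7, at no more than 0.21 CPM (counts scaled to library size and composition) in any library, was not tested. Of the 47, 3 were the membrane nucleoporins, 22 other nucleoporins and 21 transport receptors. Nup210l, a paralogue of Nup210 expressed mostly in testis, was kept apart from both kinds because it had only 0.57 to 0.94 CPM. Nup58 carries the older symbol Nupl1 in the annotation used, fell outside the rule, had 0 to 0.02 CPM under its matched ID and was not tested.

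The 12 RNA-seq libraries were made from E14Tg2a.4 mouse embryonic stem cells whose Rpl31, a protein of the large ribosomal subunit, bears a biotin acceptor (AviTag). In all groups, a proximity-labelling system called ALIBi was directed to the ER. ER-bound libraries hold poly-A RNA of the affinity-purified biotinylated ribosomes, and whole-cell libraries hold poly-A RNA of the same lysates before purification. The groups, with 3 biological replicates each, were ER-bound RNA of cells with Lsg1 siRNA, ER-bound RNA of cells with scramble siRNA, whole-cell RNA of cells with Lsg1 siRNA and whole-cell RNA of cells with scramble siRNA. Lsg1 is a GTPase of cytoplasmic 60S subunit maturation. Its mRNA stood at 43.5 ± 8.62 CPM in ER-bound Lsg1 siRNA libraries and 148 ± 4.46 CPM in ER-bound scramble libraries, and at 98.0 ± 15.1 CPM and 143 ± 6.38 CPM in the whole-cell libraries of the same cells (SD, n = 3).

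Each library held 38092178 to 56522114 reads assigned to genes. The 8 stem cell markers summed to 7172 to 7426 CPM in ER-bound Lsg1, 7629 to 8039 CPM in ER-bound scramble, 6552 to 6687 CPM in whole-cell Lsg1 and 6659 to 6728 CPM in whole-cell scramble libraries. The 7 fibroblast or feeder markers summed to 49.0 to 60.1 CPM in ER-bound and 28.0 to 31.2 CPM in whole-cell libraries, mostly from the membrane protein Thy1, and Lum was at 0 in all 12; their part in the results below was not tested. Among the ER-bound scramble libraries, replicate 1 stood apart. Of the 47 members, 6 (Pom121, Nup160, Nup188, Nup205, Ipo9 and Xpo5) stood at less than 80% of the mean of the other 2 replicates, the lowest of them at 58.7%. The scramble folds of Pom121, Nup188, Nup205 and Ipo9 are given with and without it. Medians of the folds of ER-bound against whole-cell RNA include it. Earlier results of these data had set 2 libraries, replicate 3 of the ER-bound scramble group and of the whole-cell Lsg1 group, apart for a gene outside the members, and leaving both out is named where it changes a call.

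The starts of 4 coding sequences are shown for the 3 membrane nucleoporins and for a soluble one. Each line gives the first 180 coding bases, 5′ to 3′, from the principal transcript in GENCODE M21 (mouse, GRCm38). Capitals mark in-frame codons of the form NTN, whose middle base is T and which encode phenylalanine, leucine, isoleucine, methionine or valine, the hydrophobic residues that fill membrane-spanning stretches. Ndc1 (ENSMUSG00000028614.15, chromosome 4) crosses the membrane several times, Pom121 (ENSMUSG00000053293.10, chromosome 5) near its N-terminus and Nup210 (ENSMUSG00000030091.18, chromosome 6) near its C-terminus after a signal peptide. Nup188 (ENSMUSG00000052533.15, chromosome 2), a large soluble scaffold of the inner ring, is shown because it had the lowest fold in scramble cells.
Ndc1: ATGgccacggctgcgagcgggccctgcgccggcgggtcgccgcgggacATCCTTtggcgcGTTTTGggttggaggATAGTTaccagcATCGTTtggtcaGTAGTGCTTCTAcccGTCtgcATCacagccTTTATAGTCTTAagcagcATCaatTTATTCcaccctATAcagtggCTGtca
Nup210: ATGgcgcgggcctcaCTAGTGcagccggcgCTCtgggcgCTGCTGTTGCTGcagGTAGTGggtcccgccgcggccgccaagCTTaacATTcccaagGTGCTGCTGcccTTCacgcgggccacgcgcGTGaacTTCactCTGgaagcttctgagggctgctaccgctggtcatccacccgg
Pom121: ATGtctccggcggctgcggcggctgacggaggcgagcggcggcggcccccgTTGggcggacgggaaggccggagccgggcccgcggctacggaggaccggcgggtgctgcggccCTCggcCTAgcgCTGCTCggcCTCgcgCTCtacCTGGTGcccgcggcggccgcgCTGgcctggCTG
Nup188: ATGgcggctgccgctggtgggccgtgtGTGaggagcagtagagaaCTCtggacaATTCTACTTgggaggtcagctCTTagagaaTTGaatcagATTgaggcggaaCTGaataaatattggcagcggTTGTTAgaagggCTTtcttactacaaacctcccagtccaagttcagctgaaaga

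Of the 60 codons shown, Ndc1 held 24 of the NTN form, Nup210 19, Nup188 13 and Pom121 12. In the densest run of 19 codons within these starts, about the length of a membrane span, Ndc1 had 12 NTN codons, Nup210 9, Pom121 9 and Nup188 7. Over its whole coding sequence Ndc1 reached 15 of 19, more than any other member, and 4.43% of the 21498 protein-coding genes with a coding sequence in that annotation reached as many. Nup210 and Nup188 both reached 11 of 19, as 42.5% of genes did, and Pom121 reached 9, as 82.6% did. This count read only the letters in frame on the coding strand, and it did not separate Nup210 or Pom121 from soluble members.

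Which of these mRNAs were carried by the ER-labelled ribosomes is the question of the ER-bound against whole-cell comparison. In both siRNA groups, Ndc1 was the only member higher on the ER-labelled ribosomes, and nearly all soluble nucleoporins and transport receptors were lower. In Lsg1 siRNA cells 1 of 47 members was higher, 42 were lower and 4 did not pass, with a median log2 fold of -0.51. Over all 17702 tested genes, 30.6% were higher and 29.8% lower, with a median of 0.02. In scramble cells 1 member was higher, 44 were lower and 2 (Aaas and Nup210l) did not pass, with a median of -0.54, against 29.8% higher and 29.1% lower and a median of 0.03 over all genes. Calls are by edgeR's quasi-likelihood test with a Benjamini-Hochberg adjusted p under 0.05 over all tested genes.

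Summed over the 48 genes, the members took 7361 to 7564 CPM in ER-bound Lsg1 libraries and 6914 to 7693 CPM in ER-bound scramble libraries, against 11158 to 11344 CPM and 11101 to 11664 CPM in whole-cell libraries of Lsg1 and scramble cells. The ranges of the fractions do not overlap. No library held RNA of all ribosomes, so less translation of an mRNA overall and less of it at the ER cannot be told apart between the fractions. Between siRNA groups, bulk RNA cannot tell fewer cells that carry an mRNA from less of it per cell.

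**Figure D1:**
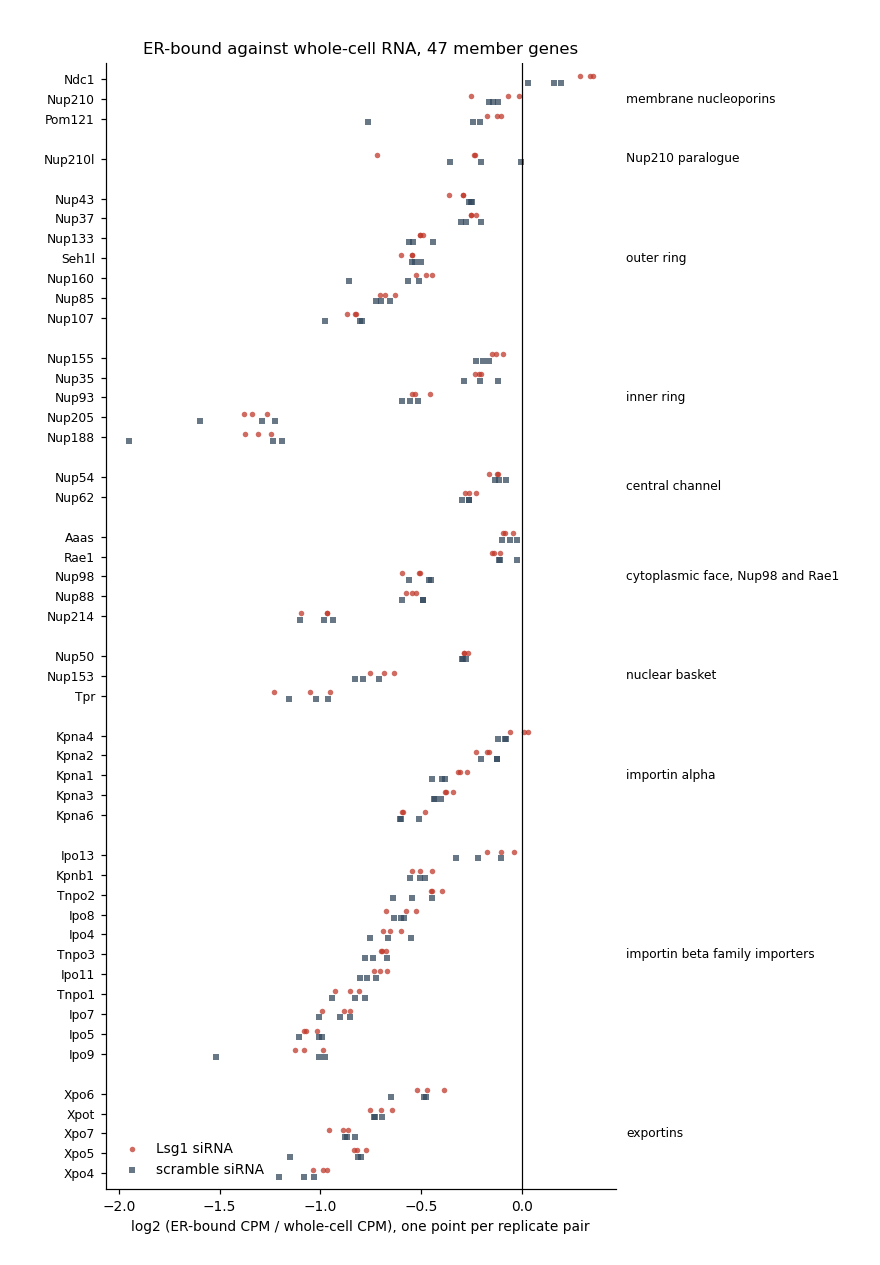
Log2 of ER-bound over whole-cell CPM for the 47 tested members (rows, grouped by role), 1 point for each same-numbered pair of libraries, with Lsg1 siRNA as circles above scramble siRNA as squares. Ndc1 lies right of 0 in all 6 pairs and most other members lie left of it, Nup188 and Nup205 farthest; the lone far-left squares of Pom121, Nup188, Nup205 and Ipo9 come from replicate 1.

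Ndc1, which anchors the pore in the membrane, had 158, 155 and 154 CPM in ER-bound against 126, 121 and 126 CPM in whole-cell libraries of Lsg1 siRNA cells. In scramble cells it had 126, 143 and 142 CPM in ER-bound against 123, 125 and 127 CPM in whole-cell libraries. The groups were separate in Lsg1 siRNA cells, while in scramble cells ER-bound replicate 1 lay within the whole-cell range. On the log2 scale ER-bound exceeded whole-cell RNA by 0.33 with Lsg1 siRNA (SE 0.04, edgeR adjusted p = 1.73e-06) and by 0.13 with scramble siRNA (SE 0.04, edgeR adjusted p = 0.0109). The scramble call was lost without ER-bound scramble replicate 2 (0.08, edgeR adjusted p = 0.133) or 3 (0.09, edgeR adjusted p = 0.107), without whole-cell scramble replicate 1 (0.10, edgeR adjusted p = 0.0933), and without the pair of libraries named above (0.09, edgeR adjusted p = 0.11). Without ER-bound scramble replicate 1 the log2 fold was 0.18 (edgeR adjusted p = 7.59e-05).

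Nup210, a glycoprotein with most of its length in the lumen between the nuclear membranes, differed little between the fractions. It had 75.7, 73.0 and 69.4 CPM in ER-bound against 76.5, 76.4 and 82.7 CPM in whole-cell libraries of Lsg1 siRNA cells, and 69.7, 71.0 and 72.8 CPM in ER-bound against 76.9, 77.1 and 81.6 CPM in whole-cell libraries of scramble cells. Every ER-bound library lay below every whole-cell library of the same siRNA. The log2 folds were -0.11 (SE 0.04, edgeR adjusted p = 0.0278) with Lsg1 siRNA and -0.14 (SE 0.04, edgeR adjusted p = 0.0062) with scramble siRNA. With Lsg1 siRNA the call was lost without ER-bound Lsg1 replicate 3 (edgeR adjusted p = 0.0552), without whole-cell Lsg1 replicate 3 (0.131) and without both libraries that earlier results set apart (0.0631). Neither call held with library totals in place of TMM scaling (-0.02 and -0.07), and with an offset for trends in GC content and transcript length both folds turned to 0.04.

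Pom121, which links the membrane to the rings, had 106, 110 and 111 CPM in ER-bound against 116, 118 and 125 CPM in whole-cell libraries of Lsg1 siRNA cells. In scramble cells it had 72.0, 98.6 and 106 CPM in ER-bound against 122, 117 and 122 CPM in whole-cell libraries. All ER-bound libraries lay below the whole-cell ones, replicate 1 of the scramble cells by far the most. The log2 fold was -0.13 with Lsg1 siRNA (SE 0.09, edgeR adjusted p = 0.195) and -0.39 with scramble siRNA (SE 0.09, edgeR adjusted p = 9.34e-04). With no filter on low counts the Lsg1 siRNA value passed (-0.15, edgeR adjusted p = 0.00262). Without ER-bound scramble replicate 1, which enters the shared estimate of spread, the values were -0.14 (edgeR adjusted p = 0.00137) and -0.24 (edgeR adjusted p = 1.73e-05). In the annotation Pom121 overlaps exons of Nsun5 on the opposite strand, and whether the counts used strand is not given in the sources used here.

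**Figure D2:**
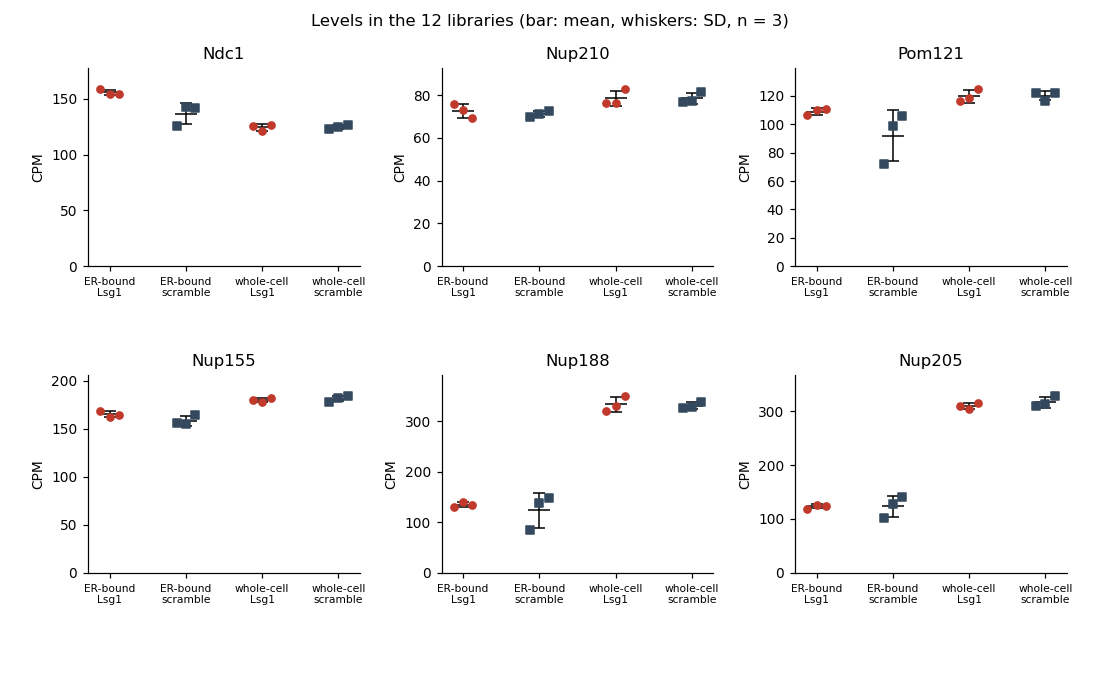
CPM in each library (points), with the mean (bar) and SD (whiskers) of 3 replicates, for the 3 membrane nucleoporins (top) and 3 soluble inner ring members (bottom), each axis starting at 0. Ndc1 is higher in ER-bound than in whole-cell libraries apart from 1 ER-bound scramble library, Nup210 and Nup155 lie slightly lower, and Nup188 and Nup205 lie at less than 50% of the whole-cell level.

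Set against the 43 soluble members, the median of the membrane nucleoporins was higher by 0.44 in Lsg1 siRNA cells and by 0.41 in scramble cells on the log2 scale. Among the 46 members apart from Nup210l, Ndc1 ranked first in each of the 6 pairs. Nup210 ranked 2, 3 and 12 in the Lsg1 siRNA pairs and 7, 8 and 7 in the scramble pairs. Pom121 ranked 7, 6 and 8 in the Lsg1 siRNA pairs and 30, 11 and 9 in the scramble pairs. These are descriptions of 3 genes and no test was made of the difference between the kinds. The soluble members had medians of -0.55 and -0.56, with none higher and 41 and 42 of 43 lower. The membrane median was that of Nup210 in both siRNA groups and was itself below 0.

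The inner ring held the strongest and some of the weakest folds of the soluble members. All 5 of its members were lower in both siRNA groups, with medians of -0.51 (Lsg1 siRNA) and -0.56 (scramble). Nup205 (ENSMUSG00000038759.16, chromosome 6), a long scaffold of the inner ring, had 119, 126 and 125 CPM in ER-bound against 309, 304 and 315 CPM in whole-cell libraries of Lsg1 siRNA cells. Nup188, its relative in the same ring, had 129, 139 and 135 CPM in ER-bound against 320, 330 and 349 CPM in whole-cell libraries of these cells. In scramble cells Nup188 had 84.3, 139 and 148 CPM in ER-bound against 326, 327 and 339 CPM in whole-cell libraries. For both genes the fractions were far apart in every pair. The log2 folds were -1.33 and -1.36 for Nup205 (SE 0.07 each, edgeR adjusted p = 2.26e-11 and 1.94e-11) and -1.31 and -1.42 for Nup188 (SE 0.13 each, edgeR adjusted p = 4.91e-08 and 1.90e-08) in Lsg1 and scramble cells. Without ER-bound scramble replicate 1, the scramble values were -1.24 for Nup205 and -1.21 for Nup188. Nup188 shares exon sequence on the same strand with the unstudied gene model Gm28038 in the annotation, so its level is uncertain.

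Nup155, the inner ring member that binds the membrane and both rings, stood nearly level between the fractions. It had 169, 163 and 165 CPM in ER-bound against 180, 178 and 182 CPM in whole-cell libraries of Lsg1 siRNA cells, and 156, 155 and 164 CPM in ER-bound against 178, 182 and 184 CPM in whole-cell libraries of scramble cells. The groups did not overlap, yet the log2 folds were only -0.12 (SE 0.03, edgeR adjusted p = 0.00182) and -0.20 (SE 0.03, edgeR adjusted p = 1.96e-05). With the offset for GC content and length they turned to 0.25 and 0.21, both past the threshold, so the direction of Nup155 depends on that choice. With library totals its Lsg1 siRNA value did not pass (edgeR adjusted p = 0.297).

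The outer ring, or Y complex, which coats the curved membrane of the pore, was lower for 7 of 7 members in both siRNA groups, with medians of -0.50 and -0.52. Nup107 was lowest, at 123 ± 1.94 CPM in ER-bound against 220 ± 0.493 CPM in whole-cell libraries of Lsg1 siRNA cells (SD, n = 3; log2 fold -0.84) and a log2 fold of -0.85 in scramble cells. Nup37 and Nup43, which sit on the arms of the Y, moved least. Nup37 had a log2 fold of -0.24 in Lsg1 siRNA cells, and Nup43 one of -0.26 in scramble cells. In the central channel, whose phenylalanine-glycine repeats form the permeability barrier, both measured members were lower, Nup62 by -0.26 and -0.27 and Nup54 by -0.13 and -0.11 in Lsg1 and scramble cells. With library totals Nup54 did not pass in either siRNA group (edgeR adjusted p = 0.215 and 0.448), nor in scramble cells with no filter (0.0642). Nup62 shares exons with Il4i1 on the same strand and overlaps Atf5 on the opposite strand.

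On the cytoplasmic face, 5 of 5 members were lower with Lsg1 siRNA and 4 of 5 with scramble siRNA. Nup214, a filament protein that docks export complexes, had 59.0, 65.6 and 70.2 CPM in ER-bound against 126, 128 and 137 CPM in whole-cell libraries of Lsg1 siRNA cells. In scramble cells it had 58.0, 67.3 and 70.0 CPM in ER-bound against 124, 129 and 139 CPM in whole-cell libraries. The fractions stood about as far apart in both siRNA groups, with a log2 fold of -1.01 in both (SE 0.07, edgeR adjusted p = 2.99e-10 and 3.39e-10). Nup214 shares exon sequence with Mir7674 on the same strand and with Fam78a, Gm13609 and Gm16534 on the opposite strand. Aaas, the WD-repeat protein that Ndc1 tethers to the pore, lay close to 0, at -0.07 with Lsg1 siRNA (edgeR adjusted p = 0.0424) and -0.06 with scramble siRNA (edgeR adjusted p = 0.0931). The Aaas call was lost without ER-bound Lsg1 replicate 1 (edgeR adjusted p = 0.0903) or 2 (0.0869) or whole-cell Lsg1 replicate 2 (0.0627), and with no filter (0.133), and its sign turned to 0.02 with library totals. Rae1, an mRNA export factor, had a log2 fold of -0.08 in scramble cells (edgeR adjusted p = 0.047). That call was lost on leaving out any library other than replicate 3 of either ER-bound group and replicate 1 of either whole-cell group, with edgeR adjusted p-values of 0.0526 to 0.177, and with library totals, no filter or a stricter filter (0.881, 0.174 and 0.0619).

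The nuclear basket was lower for 3 of 3 members in both siRNA groups. Tpr, the long coiled-coil protein that forms the basket's struts, had 176, 188 and 194 CPM in ER-bound against 413, 389 and 375 CPM in whole-cell libraries of Lsg1 siRNA cells, and 175, 192 and 201 CPM in ER-bound against 389, 374 and 409 CPM in whole-cell libraries of scramble cells. Its ER-bound level was less than 50% of the whole-cell level, with log2 folds of -1.08 and -1.05 (SE 0.05 each, edgeR adjusted p = 3.60e-12 and 6.33e-12). Tpr overlaps exons of Odr4 and Prg4 on the opposite strand. Nup50, a mobile basket protein that helps release import cargo, had log2 folds of -0.28 and -0.29.

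The transport receptors were lower in all but 2 cases. Of 21 tested, 19 were lower with Lsg1 siRNA and 21 with scramble siRNA, none was higher, and both medians were -0.65. Importin beta family importers, which bind cargo or importin alpha and cross the pore, were lower for 10 and 11 of 11, with medians of -0.69 and -0.73. Ipo9, an importer of histones and ribosomal proteins, had 93.9, 103 and 96.8 CPM in ER-bound against 199, 203 and 211 CPM in whole-cell libraries of Lsg1 siRNA cells. In scramble cells it had 71.4, 104 and 105 CPM in ER-bound against 205, 204 and 211 CPM in whole-cell libraries. No library of Ipo9 crossed between the fractions. Its log2 folds were -1.06 and -1.15 (SE 0.09 each, edgeR adjusted p = 1.29e-08 and 5.13e-09), and the scramble value was -0.99 without ER-bound scramble replicate 1. Ipo13, which also exports cargo, did not pass with Lsg1 siRNA (-0.11, edgeR adjusted p = 0.155) and passed with scramble siRNA (-0.21, edgeR adjusted p = 0.00944), though not with library totals (-0.14, edgeR adjusted p = 0.0627).

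The exportins, which carry tRNA, microRNA precursors and proteins out of the nucleus, were lower for 5 of 5 members in both siRNA groups, with medians of -0.81 and -0.86. Xpo4 had 87.9, 93.4 and 91.3 CPM in ER-bound against 180.1, 183 and 181 CPM in whole-cell libraries of Lsg1 siRNA cells, log2 fold -0.998 (SE 0.05, edgeR adjusted p = 2.45e-12). In scramble cells its log2 fold was -1.10 (SE 0.05, edgeR adjusted p = 9.52e-13). Xpo4 shares exons with the gene model Gm49361 on the same strand. Xpo6, the exporter of actin complexes, moved least of the group, at -0.46 and -0.54.

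Importin alphas, the adaptors that read nuclear localization signals, lay nearest to 0 among the receptors. They were lower for 4 of 5 with Lsg1 siRNA and 5 of 5 with scramble siRNA, with medians of -0.30 and -0.41. Kpna4 had 132, 130.3 and 129 CPM in ER-bound against 137, 129 and 127 CPM in whole-cell libraries of Lsg1 siRNA cells, overlapping ranges with a log2 fold of -0.01 (edgeR adjusted p = 0.898). In scramble cells it had 122, 125 and 125 CPM in ER-bound against 132, 132 and 131 CPM in whole-cell libraries (-0.09, SE 0.03, edgeR adjusted p = 0.0184), and with the offset for GC content and length that value turned to 0.49. The Kpna4 call in scramble cells was lost with library totals (edgeR adjusted p = 0.747) and with no filter (0.136). Kpna6 was the lowest, at -0.55 and -0.57. Kpna2, the most abundant receptor per length in whole-cell scramble libraries at 243 CPM per kb of transcript, had log2 folds of -0.19 and -0.15.

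Folds of at least 2 in the lower direction were found for 6 members with Lsg1 siRNA and 7 with scramble siRNA, where 3.35% and 3.21% of all tested genes were called lower by that much. They were Nup205, Nup188, Tpr, Ipo9, Nup214 and the importer Ipo5 (-1.06 and -1.03, named after its values were seen) in both, and Xpo4 with scramble siRNA. Xpo4 stood at -1.10 in scramble cells and at -0.998, just outside the 2-fold limit, in Lsg1 siRNA cells. Of the members past the limit, Nup214 lay nearest to it, at -1.01 in both siRNA groups. Without ER-bound scramble replicate 1, the 7 members of scramble cells became 3 (Nup188, Nup205 and Xpo4). The counts were 2 and 4 with library totals, and 2 in each siRNA group with the offset for GC content and length. By at least 1.5-fold, 19 and 20 of 47 members were lower, against 9.03% and 8.72% of all genes. The direction was the same in all 3 pairs for 46 members with Lsg1 siRNA, Kpna4 being the exception, and for 47 with scramble siRNA. The same count over all tested genes is not given here, so it does not set the members apart.

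Among the soluble members, longer coding sequences went with lower folds. Across the 43 soluble members, which are not independent replicates and share the same libraries, coding length and log2 fold had a Pearson r of -0.67 (Spearman rho -0.63) with Lsg1 siRNA and -0.68 (rho -0.68) with scramble siRNA. The medians of soluble members with a coding sequence under 2000 bases (15 genes), of 2000 to 4000 bases (20 genes) and of 4000 bases or more (8 genes) were -0.26, -0.69 and -0.85 with Lsg1 siRNA and -0.26, -0.72 and -0.89 with scramble siRNA. All tested genes with a coding sequence had medians of 0.12, -0.22 and -0.62 with Lsg1 siRNA and 0.13, -0.21 and -0.61 with scramble siRNA in the same classes. The fall with length was thus shared with other genes, and in each class the median of the soluble members lay below that of all genes. Single members lay above the all-gene median of their class: Nup155, Nup160 and Nup98 (3 of 8) and Ipo13 (1 of 20) with Lsg1 siRNA, and Nup155 and Nup98 (2 of 8) with scramble siRNA. In scramble cells Nup160 stood at -0.63, just below the class median of -0.61, with -0.86 in the pair of replicate 1 and -0.51 and -0.56 in the others. Nup210, with 5661 coding bases, stood at -0.11 and -0.14, above the medians of its class. The length itself was not separated from what goes with it, and its part in the folds was not tested beyond the offset. With the offset for GC content and transcript length, 41 and 42 members were lower and 3 were higher (Ndc1, Nup155 and Kpna4), and the soluble medians were -0.40 and -0.44.

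**Figure D3:**
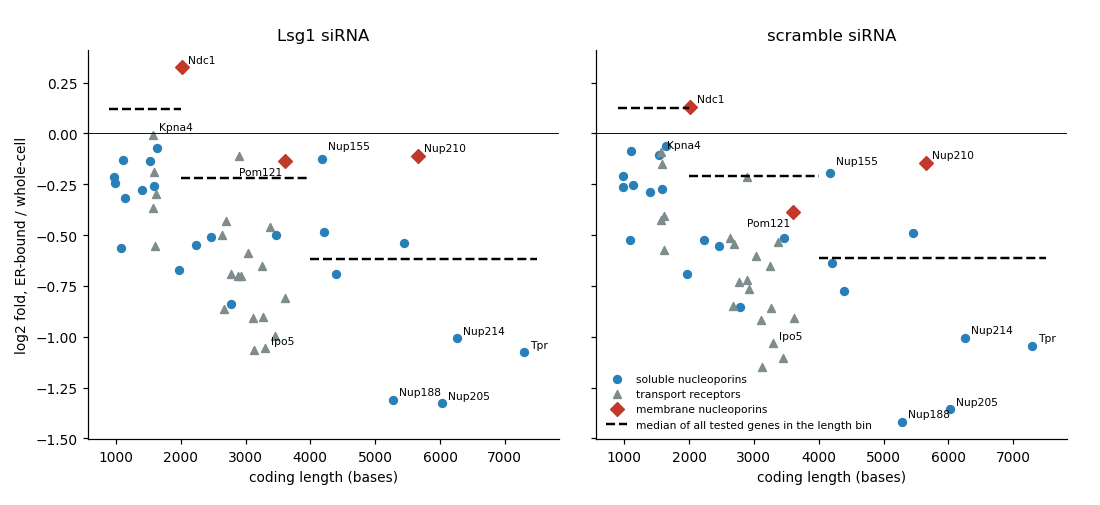
Log2 fold of ER-bound over whole-cell RNA (y) against coding length in bases (x) for Lsg1 siRNA (left) and scramble siRNA (right); each point is 1 gene, and dashed lines give the median of all tested genes under 2000, from 2000 to 4000 and from 4000 coding bases. Soluble members fall with length and mostly lie below the dashed lines, while the membrane nucleoporins Ndc1 and Nup210 lie above theirs; Pom121 lies above its line with Lsg1 siRNA and below it with scramble siRNA.

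Other genes of the nuclear pore and Ran pathway, listed by role and not by value, were mostly lower too. Of 25 listed, 24 were tested, Nupl1 being the other one, and 18 were lower with Lsg1 siRNA and 17 with scramble siRNA, and 1, the mRNA export cofactor Nxt1, was higher at 0.15 in both; the medians were -0.19. Ranbp2, the giant nucleoporin of the cytoplasmic filaments, had the lowest folds at -1.46 and -1.53, and Ahctf1, which recruits the Y complex to chromatin, stood at -1.31 and -1.34. The export receptors Cse1l and Xpo1 had -0.83 and -0.62 with Lsg1 siRNA and -0.85 and -0.64 with scramble siRNA. Ran itself stood at -0.19 and -0.20.

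Membrane proteins of the nuclear envelope behaved otherwise. Of 15 tested, 9 were higher in both siRNA groups, with 3 lower in Lsg1 siRNA cells and 5 in scramble cells, and their medians were 0.32 and 0.27. Tmem43, a membrane protein that binds lamins, had 47.6 ± 1.42 CPM in ER-bound against 18.5 ± 0.308 CPM in whole-cell libraries of Lsg1 siRNA cells (SD, n = 3), a log2 fold of 1.36 (edgeR adjusted p = 2.97e-14). In scramble cells it had 38.5 ± 0.985 CPM in ER-bound against 16.2 ± 0.870 CPM in whole-cell libraries (SD, n = 3). Lbr, the lamin B receptor, stood at 0.41 and 0.32. The nesprins Syne1, Syne2 and Syne3 were lower in both. Mean levels of Syne1 and Syne3 were only 0.94 to 2.17 CPM across the groups. Of the lamins, which line the envelope without spanning it, none was higher, and 3 and 2 of 3 were lower. The Tmem genes, a wide class of transmembrane proteins, were higher for 167 and 159 of 203 tested and lower for 4, with medians of 0.67 and 0.57. Ndc1 at 0.33 and 0.13 lay below the Tmem medians, and Nup210 and Pom121 lay lower still.

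**Figure D4:**
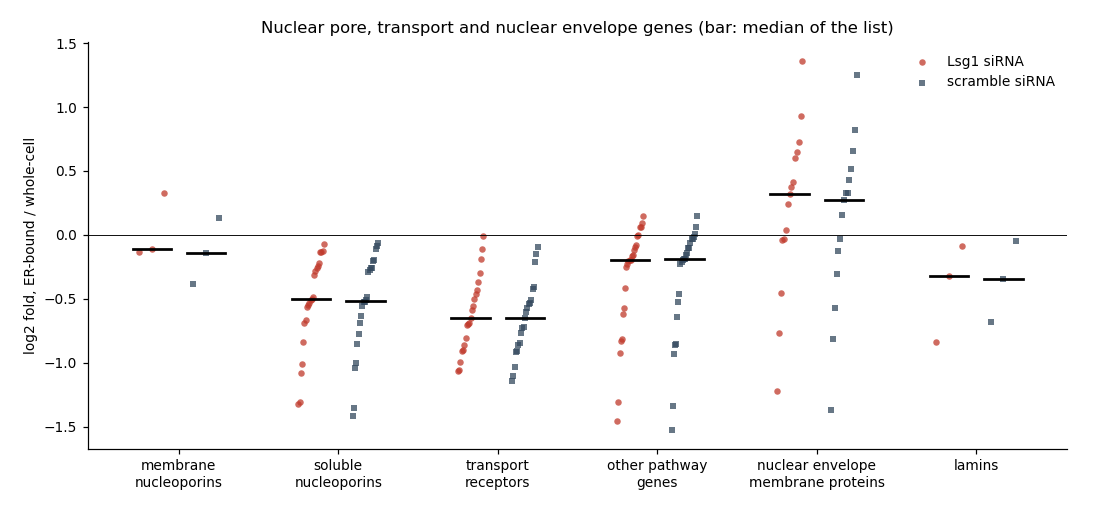
Log2 fold of ER-bound over whole-cell RNA (y) for each tested gene (point) of 6 lists (x), Lsg1 siRNA as circles left of scramble siRNA as squares, with the median as a bar. Soluble nucleoporins and transport receptors lie below 0, and nuclear envelope membrane proteins spread from below -1 to above 1 with a median above 0.

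What Lsg1 siRNA changed was read within each fraction. On ER-labelled ribosomes, 3 of 47 members were higher with Lsg1 siRNA and none was lower. Over all tested genes, 2.63% were higher and 1.38% lower, so 3 calls in 47 is a small count on a small background. An unadjusted p under 0.05 was found for 7 of 47 members, the 3 called ones among them, and for 3047 of all 17702 tested genes. DESeq2 also called 3 members higher and 0 lower. All 3 called changes were under 1.5-fold.

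Tnpo2, an importer related to transportin, had 136, 137 and 136 CPM with Lsg1 siRNA against 113, 118 and 127 CPM with scramble siRNA in ER-bound libraries. Ndc1 had 158, 155 and 154 CPM with Lsg1 siRNA against 126, 143 and 142 CPM with scramble siRNA. Kpna1 had 98.2, 97.9 and 94.5 CPM with Lsg1 siRNA against 84.9, 88.1 and 89.6 CPM with scramble siRNA. In each case the 3 Lsg1 siRNA libraries lay above all 3 scramble libraries. The log2 folds were 0.19 for Tnpo2 (SE 0.04, edgeR adjusted p = 0.00548), 0.19 for Ndc1 (SE 0.04, edgeR adjusted p = 0.0133) and 0.15 for Kpna1 (SE 0.03, edgeR adjusted p = 0.0129). Tnpo2 shares exon sequence with a small nucleolar RNA on the same strand.

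These calls depended on single libraries, and that of Kpna1 also on the filter. Ndc1 was lost without ER-bound Lsg1 replicate 1, 2 or 3 (edgeR adjusted p = 0.0845, 0.0705 and 0.0544), and without ER-bound scramble replicate 1 it stood at 0.12 (edgeR adjusted p = 0.0393). Kpna1 was lost without ER-bound Lsg1 replicate 1 (edgeR adjusted p = 0.0942) or 2 (0.107) and without ER-bound scramble replicate 1 (0.0534) or 2 (0.0823), and with no filter on low counts (0.101). Tnpo2 was lost without ER-bound scramble replicate 2 (edgeR adjusted p = 0.0514). The count of higher members ran from 1 to 4 over these omissions.

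Pom121 and Nup210 did not pass in ER-bound RNA by the main test. Pom121 had 106, 110 and 111 CPM with Lsg1 siRNA against 72.0, 98.6 and 106 CPM with scramble siRNA, which is 0.24 higher on the log2 scale (SE 0.09, edgeR adjusted p = 0.137). Most of that gap was ER-bound scramble replicate 1: without it the value was 0.09 (edgeR adjusted p = 0.241), and without ER-bound scramble replicate 3, which leaves replicate 1 in, it was 0.34 (edgeR adjusted p = 0.0223). Pom121 also passed with no filter on low counts (0.23, edgeR adjusted p = 3.41e-05) and with the GC and length offset and replicate block together (0.24, edgeR adjusted p = 0.0143). Nup210 had a log2 fold of 0.03 (edgeR adjusted p = 0.774). Of the 15 nuclear envelope membrane proteins, 2 were higher with Lsg1 siRNA, against 2.63% of all tested genes. They were Tmem43 (0.31, edgeR adjusted p = 2.74e-04) and Sun2 (0.25, edgeR adjusted p = 0.0317). In whole-cell RNA Tmem43 also lay higher, at 18.2 to 18.8 CPM with Lsg1 siRNA against 15.2 to 16.9 CPM with scramble siRNA, though it was not called. Of the lamins, Lmnb2 was lower in ER-bound RNA (-0.22, edgeR adjusted p = 0.00308).

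In whole-cell RNA no member was called between Lsg1 and scramble siRNA, and neither was any of the 17702 genes (0.0%). The genes not called include Lsg1 itself, the siRNA target, although its whole-cell ranges did not overlap. Lsg1 had 83.5 to 114 CPM with Lsg1 siRNA against 136 to 149 CPM with scramble siRNA. The lack of a call in this comparison is therefore not evidence that a gene was unchanged. An unadjusted p under 0.05 was found for 1 of 47 members, Tnpo2, and for 731 of all 17702 tested genes. DESeq2 called 0 members. Tnpo2 had 186, 180.4 and 186 CPM with Lsg1 siRNA against 176, 172 and 174 CPM with scramble siRNA, which is 0.08 higher on the log2 scale (SE 0.04, edgeR adjusted p = 1.0). Its direction was the same as on ER-labelled ribosomes. The tRNA exportin Xpot and the importer Ipo8 each stood at -0.06 (edgeR adjusted p = 1.0). Ndc1 and Pom121 each had a log2 fold of -0.01 and Nup210 lay closer still to 0. Ndc1 had 126, 121 and 126 CPM with Lsg1 siRNA against 123, 125 and 127 CPM with scramble siRNA.

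**Figure D5:**
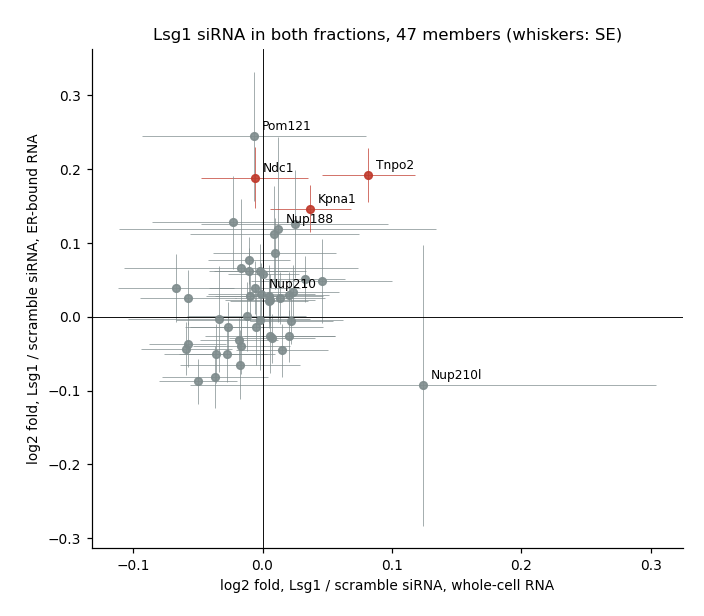
Log2 fold of Lsg1 over scramble siRNA in ER-bound RNA (y) against the same in whole-cell RNA (x) for the 47 tested members, with SE whiskers. The 3 members called in ER-bound RNA (Tnpo2, Ndc1 and Kpna1, in red) lie between 0.15 and 0.19 on the y axis; Pom121, at 0.24 with a wider whisker, was not called.

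Whether the ER-bound against whole-cell fold itself differed between the siRNAs was tested as an interaction. No member passed by edgeR or DESeq2, and 0.0226% of all genes were called. An unadjusted p under 0.05 was found for 3 of 47 members (Ndc1, Kpna1 and Tnpo2) and for 1219 of all 17702 tested genes. Ndc1 came nearest, with a difference of folds of 0.19 (SE 0.06, edgeR adjusted p = 0.495) that was positive in 3 of 3 pairs. Kpna1 and Tnpo2 each had a difference of 0.11 (edgeR adjusted p = 0.659 and 0.713), positive in 3 and 2 pairs. These counts of pairs match the siRNAs by replicate number, which does not pair them, so they add no support. Pom121 had 0.25 (SE 0.12, edgeR adjusted p = 0.739), which was 0.10 without ER-bound scramble replicate 1, and Nup210 had 0.03 (SE 0.06, edgeR adjusted p = 0.976). The higher fold of Ndc1 with Lsg1 siRNA than with scramble siRNA is therefore not shown to be a difference between them by this test. Against the soluble members, the median of the membrane nucleoporins was 0.18 higher on this scale, and 0.12 without ER-bound scramble replicate 1.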

How the data were processed

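RNA-seq counts per gene were deposited by the authors for 12 libraries, whole numbers not normalized. Per the labels' protocols, libraries were made from poly-A RNA with a directional kit. The submitters' processing notes name STAR 2.7.9a, HTSeq 0.11.2, DESeq2 and GRCm39; the strand setting is not given in the sources used here. Unassigned reads were left out of library sizes: 2.65 to 5.26% with no feature, 6.09 to 8.23% mapped to multiple places and 0.970 to 1.16% ambiguous.

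Gene IDs were matched without version to GENCODE M21 (GRCm38), which named 52083 of 55416 (94.0%). Coordinates of GRCm38 were used only within that build, to place coding sequences in transcripts and to find exons that overlap other genes. Because the builds differ, they were not carried to GRCm39, and the overlaps were not checked there. Genes kept by filterByExpr (17702) were tested with edgeR 4.0.16 in R 4.3.3, by glmQLFit and glmQLFTest on 1 model of the 4 groups (a biological coefficient of variation of 4.42%, with 8 residual degrees of freedom), with TMM scaling and Benjamini-Hochberg adjustment at 0.05. Log2 folds are those of the edgeR fit at its default settings. A prior count of 2 was used for log2 CPM in the offset and in the correlations of pairs. At 38092178 to 56522114 reads per library, counting error is small for all members but Nup210l and Kpna7. The scripts were tested on simulated data.

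The members and lists were chosen with earlier results of these data known. Named genes are the 3 membrane nucleoporins and a set chosen by rule: between fractions, the highest and lowest called member of each role and the 4 highest and 4 lowest of all; between siRNAs and for the interaction, all called members, or the 3 with the smallest p where none was called. Other genes, those of the context lists included, were named after their values were seen. Replicate numbers come from the titles. Both fractions of a number share a lysate per the design text, so they pair the fractions; deviations of the pairs correlated by 0.0024 to 0.138. Between siRNAs the deviations of same-numbered libraries correlated by 0.0073 to 0.1735, so these correlations do not set the fractions apart from the siRNAs. The siRNA groups do not share lysates, and their numbers were not taken as pairs. The labels call the replicates biological and do not say what separates them. The p-values set each difference against the spread between these samples, estimated over all groups together. Alternatives were DESeq2 1.42.0, its size factors, library totals, no filter, a stricter filter (2 CPM in 3 libraries), a replicate block, an offset for GC content and length (alone, and with the block, the second added after seeing the data), and leaving out libraries.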

Additional observations from a re-analysis of the deposited data

Results flagged for a closer look

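Nup210l had log2 folds of Lsg1 over scramble siRNA of opposite sign in the 2 fractions, each smaller than its SE. The values were -0.09 (SE 0.19) in ER-bound RNA and 0.12 (SE 0.18) in whole-cell RNA. In both fractions the replicates of the 2 siRNAs overlapped. The mean difference over same-numbered libraries was -0.21, though these numbers do not pair the siRNAs. The interaction did not pass (edgeR adjusted p = 0.96), and the gene had only 0.57 to 0.94 CPM.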

How the results depend on the processing

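With the replicate block, 1 member was higher and 43 lower in ER-bound against whole-cell RNA with Lsg1 siRNA, 1 and 44 with scramble siRNA, and 3 and 0 in ER-bound RNA of Lsg1 against scramble siRNA, so the pairing changed no count by over 1.5 times. Members higher in ER-bound RNA numbered 3 in both siRNA groups with the GC and length offset, with or without the block, 2 with library totals (Lsg1 siRNA) and 0 without the 2 libraries set apart (scramble siRNA). The gap between membrane and soluble medians in scramble cells was 0.47 with the offset and 0.48 with offset and block. With offset and block, 1 member was lower in ER-bound RNA of Lsg1 against scramble siRNA. With the offset, with or without the block, Nup155 turned to 0.25 and 0.21, Nup210 to 0.043 (Lsg1 siRNA) and 0.038 (scramble siRNA), Kpna4 to 0.49 (scramble siRNA) and Nup210 to 0.0065 between siRNAs in whole-cell RNA. Library totals put the median of all genes at 0.11 in both siRNA groups, with 37 (Lsg1 siRNA) and 38 (scramble siRNA) members lower; Aaas then turned to 0.015 (Lsg1 siRNA). The cause of these changes was not tested.

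Leaving out 1 library gave 0 to 1 higher members in scramble cells, 1 to 4 higher and 0 to 1 lower in ER-bound RNA of Lsg1 against scramble siRNA, and log2 folds between siRNAs in whole-cell RNA of -0.025 to 0.011 for Ndc1, -0.047 to 0.033 for Nup210 and -0.044 to 0.011 for Pom121. Nup210 ran from -0.0078 to 0.049 in ER-bound RNA between siRNAs and from -0.014 to 0.068 in the interaction.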
